A study of Homo sapiens with 24 samples.

Results

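The D and E cyclins, the kinases CDK4 and CDK6 and the inhibitors of these kinases were followed across 6 groups of AGS cells, an established line from a human gastric adenocarcinoma. The 10 genes were taken by symbol: CCND1, CCND3, CCNE1, CCNE2, CDK4, CDK6, CDKN1A, CDKN1B, CDKN1C and CDKN2C. They are 10 of the 23368 genes of the count table, and all 10 were among the 13947 genes that passed the filter on low counts. Each of the 6 groups had 4 libraries from cells harvested after 24 h, and besides untreated control cells they had received 0.7 µM PI103 (a dual inhibitor of mTOR and PI3 kinases), 0.035 µM PD0325901 (which blocks MEK, the kinase above ERK), or 0.5 µM (5Z)-7-oxozeaenol (which blocks TAK1, and is called oxozeaenol hereafter). Another group had 0.35 µM PI103 and 0.25 µM oxozeaenol together, and the last had 0.35 µM PI103 and 0.0175 µM PD0325901, so that the pairs used 50% of the concentrations given singly. The labels describe the replicates as biological and give the replicate number as the batch. All cells are of 1 line, and whether control cells received vehicle is not stated in the sources used here.

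D-type cyclins bind CDK4 or CDK6 in early G1 and are made in response to growth signals, and E-type cyclins bind CDK2 later in G1. Both kinds of complex phosphorylate the retinoblastoma protein, which then releases E2F factors that switch on the genes of DNA replication, the E cyclins among them. The INK4 inhibitors, of which CDKN2C encodes p18, bind CDK4 and CDK6, whereas the CIP/KIP inhibitors p21 (CDKN1A), p27 (CDKN1B) and p57 (CDKN1C) bind cyclin-CDK complexes. Much of the control of these proteins, above all of cyclin D1, p21 and p27, acts after transcription, which read counts do not measure.

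Library totals lay between 38057638 and 84226380 counts in genes. Levels are counts-per-million values (CPM) of the TMM-scaled library size, so that they are shares of a library: fewer cells with a transcript and less of it per cell cannot be told apart. Of 10 epithelial markers 9 reached 1 CPM in some library, with a summed level of 5470 to 8743 CPM, and CDX1 had at most 1 count. Fibroblast markers summed to 37.6 to 112 CPM, nearly all from PDGFRA and COL1A1, with COL1A2 and DCN at no more than 1 count. Among 6 leukocyte markers LYZ alone passed 1 CPM, and PTPRC and CD3E had at most 7 and 1 counts. The leukocyte markers summed to 37.8 to 48.4 CPM in control libraries and 187 to 466 CPM in treated ones, and the part of this in the results was not tested. Endothelial markers summed to at most 0.479 CPM. In PD0325901 and in PI103 with PD0325901, replicate 2 had the least CCND1, CDK4 and CDKN1A of its group and the most CDKN1C. Of these values, only CDKN1C in the combination passed the outlier check given below. Values without replicate 2 are given beside calls that were lost without it. In this line CCND2, the remaining D cyclin, had 0 to 5 counts and CDKN2A, the p16 gene, 0 to 2 counts per library, so cyclin D and INK4 transcripts came from the other genes of these families.

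Promoter sequences are shown for 3 genes that changed in 1 direction in most treatments: CDKN1A, called lower in all 5, CDKN2C, called higher in all 5, and CCNE1, called higher in 4. CDKN1C, also called higher in all 5, is not shown, because no start site was matched for it, CCND1 or CCNE2. RefSeq start sites (GRCh38.p14) were matched for 7 of the 10 genes, and the 250 bases before each start were searched on both strands for AP-1 (TGAGTCA), a cyclic AMP response core (CRE, ACGTCA), 3 forms of E2F site (TTTCGCGC, TTTGGCGC and TTTCCCGC), forkhead (GTAAACA), E-box (CACGTG), TCF (CTTTGAT), GC box (GGGCGG), the letters CCAAT, and a TATA box (TATAAA). Capitals mark these matches, and bases inside annotated exons of the gene were left out of the print. All are on the plus strand, 5′ to 3′, at chr6:36678464-36678657 for CDKN1A, chr1:50960495-50960744 for CDKN2C and chr19:29811741-29811897 for CCNE1.
CDKN1A: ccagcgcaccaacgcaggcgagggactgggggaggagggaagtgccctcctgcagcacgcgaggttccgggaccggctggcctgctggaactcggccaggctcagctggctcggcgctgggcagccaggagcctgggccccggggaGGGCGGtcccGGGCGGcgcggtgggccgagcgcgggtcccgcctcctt
CDKN2C: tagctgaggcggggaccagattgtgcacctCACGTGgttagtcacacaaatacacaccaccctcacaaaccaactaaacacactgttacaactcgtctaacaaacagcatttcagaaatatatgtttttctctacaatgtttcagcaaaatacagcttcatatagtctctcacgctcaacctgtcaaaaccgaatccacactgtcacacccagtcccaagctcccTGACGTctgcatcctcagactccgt
CCNE1: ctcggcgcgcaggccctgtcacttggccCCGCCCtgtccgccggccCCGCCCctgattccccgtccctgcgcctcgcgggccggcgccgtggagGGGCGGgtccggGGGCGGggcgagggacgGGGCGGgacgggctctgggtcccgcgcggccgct
The CDKN1A stretch lies within the gene's GENCODE span but outside its exons, holds 2 GC boxes, and overlaps an exon of DINOL, a noncoding RNA of the other strand. The CCNE1 stretch holds 5 GC boxes, 2 of them read on the minus strand. The CDKN2C stretch holds no GC box but an E-box, 220 bases before the start, and a CRE core on the minus strand, 25 bases before it. GC content over 250 bases was 76.4% for CDKN1A and 81.2% for CCNE1 but 45.6% for CDKN2C, against a median of 58% over 27305 promoters. GC boxes were present in 6 of the 7 promoters, against 42.3% of all promoters. E-boxes, in 6.49% of all promoters, were found in CDKN2C and CDK4, and the CRE core, in 7.42% of all, in CDKN2C. CCAAT, in 33.0% of all, was found in CDKN1B. AP-1 (4.16% of all), the E2F forms (0.469%, 0.553% and 1.42%), forkhead (2.98%), TCF (2.28%) and the TATA box (11.1%) had no match in these 7 windows.

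Against control, 6 of the 10 genes changed with PI103 (4 higher, 2 lower), where 51.4% of all tested genes were called, and 7 with PD0325901 (3 higher, 4 lower), where 58.6% were. With oxozeaenol 7 changed (5 higher, 2 lower) against 51.9% of all genes. The combination of PI103 and oxozeaenol changed 6 (5 higher, 1 lower) against 55.6%, and PI103 with PD0325901 changed 5 (2 higher, 3 lower) against 64.8%. A call is an adjusted p under 0.05 in edgeR's quasi-likelihood test over all 13947 genes, and the 5 comparisons share the control libraries. Without control replicate 4 the PI103 count was 3. These shares were near those of all genes, so the number of calls says nothing particular about the cyclins and inhibitors. The median size of change, as absolute log2 fold change, was 0.558 with oxozeaenol against 0.345 over all genes, and 0.289 with PI103 against 0.347. It was 0.36 with PD0325901 against 0.40, 0.55 with PI103 and oxozeaenol against 0.37, and 0.57 with PI103 and PD0325901 against 0.47.

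**Figure D1:**
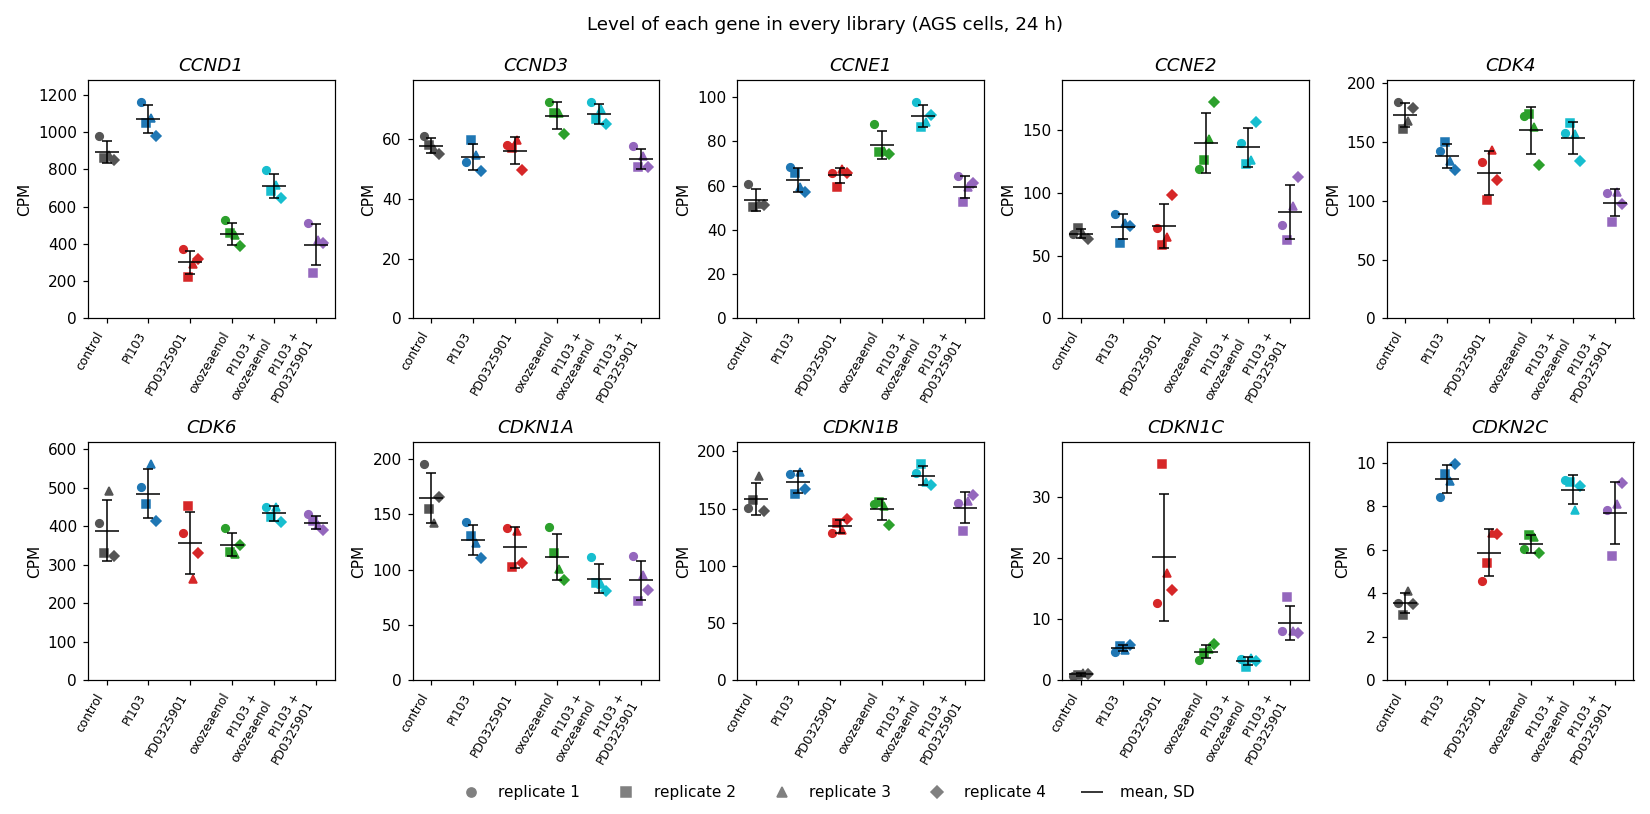
CPM of each of the 10 genes (vertical axis, from 0) in every library of the 6 groups (horizontal axis); point shape gives the replicate number, and bars give the mean and SD of 4 libraries. CCND1 is lowest with PD0325901 (222 to 372 CPM), and CDKN1C rises from about 1 CPM in control to 12.7 to 35.6 CPM with PD0325901. In that group the square of replicate 2 is the lowest point for CCND1 and the highest for CDKN1C.

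CCND1, which encodes cyclin D1, had the widest fall of the 10 genes, with PD0325901. Control libraries held 978, 859, 877 and 852 CPM, and PD0325901 libraries 372, 223, 292 and 319 CPM, so that the groups did not overlap. The log2 fold change was -1.57 ± 0.16 (SE), with an adjusted p of 7.5e-09, and was negative in 4 of 4 batches. Without replicate 2 of PD0325901, the lowest library, it was -1.42.

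Oxozeaenol also lowered CCND1, to 530, 456, 445 and 386 CPM, every library below control. That is a log2 change of -0.97 ± 0.16 (SE, adjusted p = 1.3e-05). PI103 with PD0325901 gave 511, 245, 420 and 407 CPM (-1.17 ± 0.16 SE, adjusted p = 4.7e-07), and -0.999 without its replicate 2.

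PI103 alone stood on the other side of control for CCND1, at 1162, 1050, 1075 and 979 CPM. All 4 libraries lay above the highest control library, the lowest by about 1 CPM, but the difference of 0.26 did not pass (adjusted p = 0.17). Its 95% interval in that fit, over all 24 libraries, ran from -0.05 to 0.56. The difference passed in the fit of PI103 and control alone (0.26, adjusted p = 0.012). PI103 with oxozeaenol lay between, at 795, 683, 716 and 647 CPM, a difference of -0.33 that did not pass (adjusted p = 0.076). It passed with the replicate number as a block, at the same -0.33, and in the fit of those groups alone (-0.32). In order of mean level the groups ran PI103, control, PI103 with oxozeaenol, oxozeaenol, PI103 with PD0325901 and PD0325901, and oxozeaenol and PD0325901 each overlapped PI103 with PD0325901, which lay between them.

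CCND3, the cyclin D3 gene, moved little: its highest library was 1.47 times its lowest. It rose with oxozeaenol (67.9 ± 4.5 CPM against 57.8 ± 2.5 in control, SD, n = 4), by 0.23 ± 0.08 (SE, adjusted p = 0.013), and with PI103 and oxozeaenol by 0.25 ± 0.08 (SE, adjusted p = 0.0084). Neither call held without the filter on low counts, and that for oxozeaenol was lost without oxozeaenol replicate 1 (0.19). With PD0325901, where CCND1 fell most, the CCND3 difference was -0.04, with a 95% interval from -0.19 to 0.11. PI103 (-0.10) and PI103 with PD0325901 (-0.12) did not pass either.

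**Figure D2:**
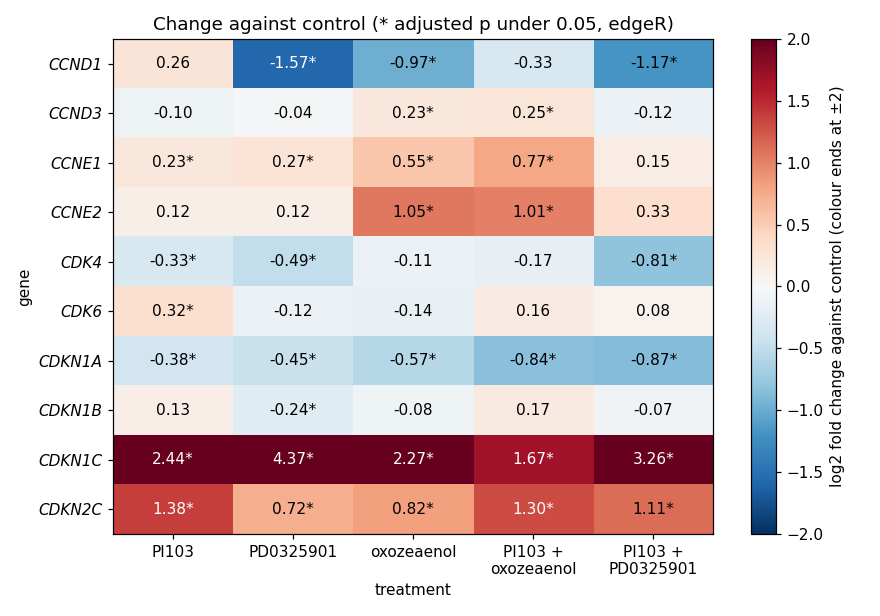
Log2 fold change against control of each gene (rows) in each treatment (columns), from the fit over all 24 libraries; red is higher, blue lower, the colour scale ends at 2 in either direction, and an asterisk marks an adjusted p under 0.05. CDKN1C and CDKN2C are called higher and CDKN1A lower in all 5 treatments, while CCND1 is called lower with PD0325901, oxozeaenol and PI103 with PD0325901.

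CDK4 and CDK6 encode the kinases that D cyclins activate. CDK4 fell with PI103, with PD0325901 and most with both. Control libraries held 184, 161, 168 and 179 CPM, and libraries of PI103 with PD0325901 107, 82.5, 108 and 97.5 CPM, without overlap. The log2 change was -0.81 ± 0.11 (SE, adjusted p = 3.9e-07), and -0.73 without replicate 2 of the combination. PD0325901 alone gave 133, 100, 143 and 118 CPM (-0.49 ± 0.11 SE, adjusted p = 0.00041), and PI103 alone 142, 150, 134 and 126 CPM (-0.33 ± 0.11 SE, adjusted p = 0.013). Neither oxozeaenol group was called: the differences were -0.11 (95% interval -0.33 to 0.10) and, with PI103, -0.17 (-0.38 to 0.04).

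CDK6 overlapped control in every treatment. Control libraries spread from 322 to 492 CPM (409, 331, 492 and 322), and PD0325901 libraries from 262 to 453 CPM. PI103 libraries held 503, 458, 562 and 413 CPM, overlapping control, and the rise of 0.32 ± 0.13 (SE) had an adjusted p of 0.049. It did not pass with DESeq2, with another size factor, without the filter, or in 6 of 8 fits that left out 1 library (those without control replicates 1, 2 or 4 or PI103 replicates 1, 2 or 3, at 0.24 to 0.34). The other treatments differed from control by -0.14 to 0.16, and none was called. With PD0325901 the sign turned without control replicate 3 (0.04).

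The E cyclins rose with oxozeaenol, alone or with PI103. CCNE2, the cyclin E2 gene, held 67.6, 71.8, 67.5 and 63.3 CPM in control and 119, 126, 143 and 173 CPM with oxozeaenol. Every oxozeaenol library lay above every control library, a log2 change of 1.05 ± 0.16 (SE, adjusted p = 7.4e-06). PI103 with oxozeaenol, with 50% of the dose, gave 140, 123, 126 and 157 CPM (1.01 ± 0.16 SE, adjusted p = 9.9e-06), overlapping oxozeaenol alone.

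In the other 3 treatments CCNE2 overlapped control. PI103 libraries ranged from 60.1 to 83.2 CPM (0.12, 95% interval -0.19 to 0.43) and PD0325901 libraries from 58.2 to 98.3 CPM (0.12, -0.19 to 0.43). The PD0325901 value turned to -0.05 without replicate 4 of that group. PI103 with PD0325901 gave 74.6, 62.2, 89.7 and 113 CPM, a difference of 0.33 (adjusted p = 0.075) that passed with the replicate number as a block (0.29) and without replicate 2 of the combination (0.45).

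CCNE1, the cyclin E1 gene, rose in 4 of the 5 treatments by smaller amounts. PI103 with oxozeaenol had 97.9, 86.5, 88.8 and 91.8 CPM against 60.8, 50.2, 51.6 and 51.3 CPM in control, with no overlap and a log2 change of 0.77 ± 0.08 (SE, adjusted p = 2.4e-08). Oxozeaenol alone gave 87.9, 75.4, 75.5 and 74.4 CPM (0.55 ± 0.08 SE, adjusted p = 5.4e-06). In both groups all libraries exceeded the highest control library.

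For PD0325901 the CCNE1 rise was 0.27 ± 0.08 (SE, adjusted p = 0.0067) and for PI103 0.23 ± 0.08 (SE, adjusted p = 0.025), and both groups overlapped control, whose replicate 1 was its highest library. The PI103 call was lost without the filter and in 5 of 8 fits without 1 library (control replicates 2, 3 or 4, or PI103 replicates 1 or 2), at 0.18 to 0.21. PI103 with PD0325901 differed by 0.15 (adjusted p = 0.11), which passed with the replicate number as a block (0.15), without control replicate 1 (0.22) and without replicate 2 of the combination (0.21).

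CDKN2C, the p18 gene, was low in these cells and rose in every treatment. Control libraries held 3.56, 3.02, 4.11 and 3.53 CPM (162 to 336 counts). PI103 had the highest level, 8.44, 9.49, 9.15 and 9.97 CPM, a log2 change of 1.38 ± 0.14 (SE, adjusted p = 6.3e-09). PI103 with oxozeaenol followed at 9.23, 9.10, 7.81 and 8.96 CPM (1.30 ± 0.14 SE, adjusted p = 1.3e-08).

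No treated library overlapped control for CDKN2C. PI103 with PD0325901 had 7.83, 5.73, 8.13 and 9.09 CPM (1.11 ± 0.14 SE, adjusted p = 9.9e-08). Oxozeaenol had 6.04, 6.68, 6.58 and 5.84 CPM (0.82 ± 0.14 SE, adjusted p = 2.0e-05), and PD0325901 4.57, 5.41, 6.77 and 6.75 CPM (0.72 ± 0.14 SE, adjusted p = 6.4e-05). Neighbouring groups overlapped all along this order except PD0325901 and control.

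CDKN1C, the p57 gene, rose most of the 10 genes, from the lowest control level among them. Control libraries held 0.680, 0.857, 1.22 and 1.09 CPM, or 42 to 100 counts. PD0325901 libraries held 12.7, 35.6, 17.6 and 14.9 CPM, a log2 change of 4.37 ± 0.30 (SE, adjusted p = 3.0e-11). The highest of them, replicate 2, was also the PD0325901 library with the least CCND1, and without it the change was 3.98.

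PI103 with PD0325901 followed for CDKN1C, with 8.03, 13.6, 8.13 and 7.72 CPM (3.26 ± 0.30 SE, adjusted p = 1.4e-09), or 3.03 without its replicate 2. PI103 gave 4.70, 5.65, 5.04 and 5.72 CPM (2.44 ± 0.30 SE, adjusted p = 3.2e-07). Oxozeaenol gave 3.34, 4.48, 5.14 and 5.89 CPM (2.27 ± 0.30 SE, adjusted p = 1.0e-06). The weakest rise, 1.67 ± 0.30 (SE, adjusted p = 4.8e-05), was with PI103 plus oxozeaenol at 3.47, 2.14, 3.61 and 3.22 CPM, which still lay above every control library.

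**Figure D3:**
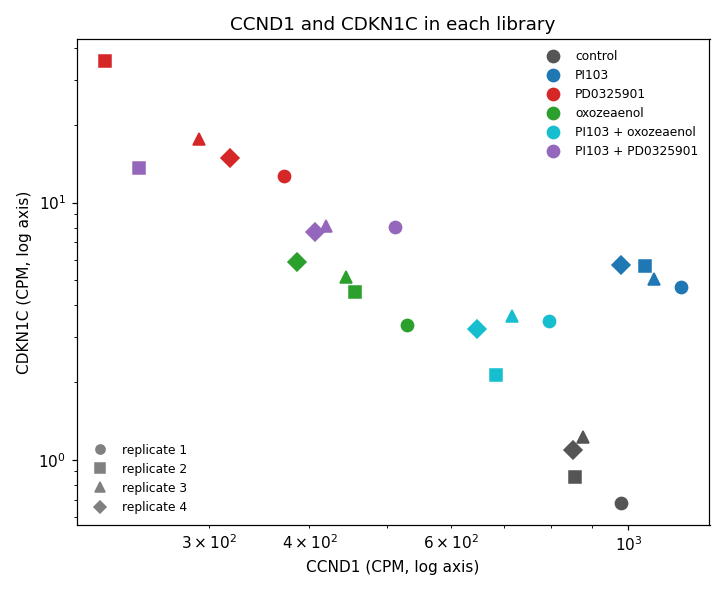
CDKN1C (vertical axis) against CCND1 (horizontal axis), both in CPM on log axes, for each of the 24 libraries; colour gives the group and shape the replicate. The 4 PD0325901 libraries lie at the upper left and control at the lower right, replicate 2 of PD0325901 (223 CPM CCND1, 35.6 CPM CDKN1C) is the extreme point, and the PI103 libraries combine high CCND1 with CDKN1C at 4.70 to 5.72 CPM.

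CDKN1A, the p21 gene, fell in every treatment. Control libraries held 196, 155, 142 and 165 CPM. PI103 with PD0325901 gave 112, 72.1, 95.1 and 81.6 CPM (-0.87 ± 0.14 SE, adjusted p = 1.0e-05), and PI103 with oxozeaenol 111, 88.2, 86.8 and 80.9 CPM (-0.84 ± 0.14 SE, adjusted p = 2.3e-05). Both combinations lay below all control libraries.

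Among single agents the CDKN1A fall was -0.57 ± 0.14 (SE, adjusted p = 0.0019) with oxozeaenol (138, 115, 101 and 90.9 CPM) and -0.45 ± 0.14 (SE, adjusted p = 0.0087) with PD0325901 (137, 103, 135 and 106 CPM). Neither group overlapped control. With PI103 (143, 130, 124 and 110 CPM) it was -0.38 ± 0.14 (SE, adjusted p = 0.030), and the groups overlapped. That call was lost in 4 of 8 fits without 1 library (control replicates 1 or 4, PI103 replicates 3 or 4, at -0.28 to -0.38), and the PD0325901 call without PD0325901 replicate 2 (-0.35).

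CDKN1B, the p27 gene, was nearly level: its highest library was 1.47 times its lowest. With PD0325901 it held 129, 138, 131 and 141 CPM against 151, 158, 178 and 148 CPM in control. The groups did not overlap, and CDKN1B fell, with a log2 change of -0.24 ± 0.08 (SE, adjusted p = 0.012), the 1 call for this gene against control. That call was lost without control replicate 3 (-0.15), without PD0325901 replicate 1 (-0.19), and when the fit held those groups alone (-0.20). PI103 with oxozeaenol differed by 0.17 (adjusted p = 0.064), which passed at 0.17 with the replicate number as a block and at 0.24 without control replicate 3.

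Per kilobase of exon, CCND1 was the most abundant of the 10 transcripts in control, at 185 ± 12 CPM per kb (SD, n = 4). CDKN1B (56.4 ± 4.9), CDK4 (54.7 ± 3.3) and CDKN1A (54.0 ± 7.5) followed within each other's spread, then CDK6 at 31.7 ± 6.5. CCNE1 had 20.96 ± 1.94, CCNE2 15.4 ± 0.8 and CCND3 9.96 ± 0.43 CPM per kb, all as SD with n = 4. CDKN2C (1.07 ± 0.13) and CDKN1C (0.388 ± 0.097) were the scarcest. With PD0325901 CDKN1C reached 8.15 ± 4.21 CPM per kb, above CDKN2C (1.77 ± 0.32) and still below CDKN1B (47.9 ± 1.9) on this scale.

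In GENCODE release 29 (GRCh38) the genes lie at chr11:69641087-69654474 (CCND1), chr6:41934933-42050357 (CCND3), chr19:29811898-29824308 (CCNE1), chr12:57747727-57756013 (CDK4), chr7:92604921-92836594 (CDK6), chr6:36676460-36687339 (CDKN1A), chr12:12715058-12722371 (CDKN1B), chr11:2883213-2885773 (CDKN1C) and chr1:50960745-50974633 (CDKN2C). Exons of TSPAN31 cover 43.2% of CDK4's exon length on the other strand, those of INTS8 and a noncoding neighbour 37.1% of CCNE2's, and those of LTO1, listed as ORAOV1, 10.3% of CCND1's. The library kit keeps strand, but whether the counting used it is not stated. TSPAN31 rose with PD0325901 (0.49) and with PI103 and PD0325901 (0.50), where CDK4 fell. INTS8 was not called with oxozeaenol (-0.13) and fell with PI103 and oxozeaenol by 0.39 on the log2 scale, where CCNE2 rose. ORAOV1 fell in all 5 treatments, by 0.46 to 0.86 on the log2 scale, also with PI103, where CCND1 was not lower. Its control level was 22.1 CPM against 891 CPM for CCND1.

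Ratios of counts between partners within a library, which need no scaling between libraries, are given as a description, with no test. CCND1 to CCND3 was 15.4 ± 0.5 (SD, n = 4) in control, 19.8 ± 1.9 with PI103 and 5.41 ± 1.24 with PD0325901. Oxozeaenol gave 6.67 ± 0.45, its combination with PI103 gave 10.4 ± 0.4, and PI103 plus PD0325901 gave 7.36 ± 1.74. CCND1 stayed the larger count in every library, the lowest ratio being 3.91 in PD0325901 replicate 2. CCNE1 to CCNE2 ranged from 0.698 to 0.900 in control and from 0.431 to 0.739 with oxozeaenol, so these groups overlapped. CDK4 to CDK6 was 0.459 ± 0.090 in control and 0.242 ± 0.029 with PI103 and PD0325901, without overlap. CDKN1A to CDKN1B ranged from 0.800 to 1.301 in control and from 0.466 to 0.612 with PI103 and oxozeaenol.

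**Figure D4:**
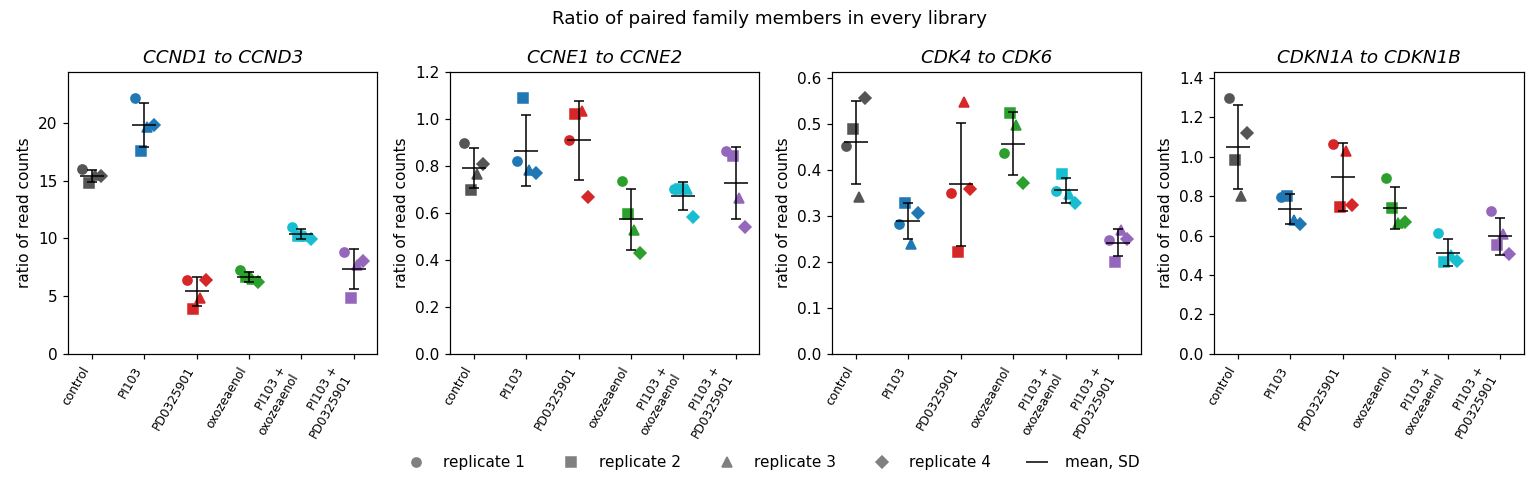
Ratio of read counts (vertical axis, from 0) between CCND1 and CCND3, CCNE1 and CCNE2, CDK4 and CDK6, and CDKN1A and CDKN1B in every library, by group; point shape gives the replicate, bars the mean and SD of 4 libraries. The CCND1 to CCND3 ratio separates PI103 (17.6 to 22.2) and control (14.8 to 16.02) from the other 4 groups, whose highest library is at 10.99.

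Single agents were compared directly at the doses used. PI103 against PD0325901 gave 5 calls of 10, with 44.5% of all genes called. CCND1 was higher with PI103 by 1.83 ± 0.16 (SE, adjusted p = 1.4e-09), and CDKN2C by 0.65, CDK6 by 0.44 and CDKN1B by 0.36. CDKN1C was lower with PI103, at -1.94 ± 0.26 (SE, adjusted p = 2.3e-06). The CDK6 call was lost without PD0325901 replicate 3 (0.32).

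PI103 against oxozeaenol gave 7 calls, with 43.1% of all genes called. CCND1 (1.23 ± 0.16 SE, adjusted p = 8.3e-07), CDKN2C (0.56), CDK6 (0.46) and CDKN1B (0.21) were higher with PI103, and CCNE2 (-0.94 ± 0.16 SE, adjusted p = 5.3e-05), CCND3 (-0.33) and CCNE1 (-0.32) lower. The CDKN1B call was lost without PI103 replicates 1 or 3 or oxozeaenol replicate 4 (0.17 to 0.19). CDKN1C did not pass between these agents (0.17, 95% interval -0.35 to 0.69).

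PD0325901 against oxozeaenol gave 6 calls, with 28.5% of all genes called. Only CDKN1C was called higher with PD0325901 (2.10 ± 0.27 SE, adjusted p = 5.1e-06). CCNE2 (-0.93 ± 0.16 SE, adjusted p = 0.00017), CCND1 (-0.59), CDK4 (-0.37), CCND3 (-0.28) and CCNE1 (-0.28) were lower. The last 3 were lost without oxozeaenol replicate 1 (-0.30, -0.21 and -0.18), which left 3 calls, and also in the fit of those groups alone, and CDK4 (-0.26) and CCNE1 (-0.21) without PD0325901 replicate 2. CDKN2C (-0.09, 95% interval -0.36 to 0.17) and CDKN1A (0.11, -0.17 to 0.39) were not called.

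Each combination was set against its agents, which were given at 2 times its dose, so dose and partner cannot be told apart. PI103 with oxozeaenol against PI103 gave 5 calls, with 18.3% of all genes called: CCNE2 (0.90 ± 0.16 SE, adjusted p = 0.00026), CCNE1 (0.54) and CCND3 (0.34) were higher and CCND1 (-0.59) and CDKN1A (-0.47) lower. The CDKN1A call was lost in 5 of 8 fits without 1 library, those without PI103 replicates 1 or 2 or combination replicates 2, 3 or 4 (-0.40 to -0.45). Against oxozeaenol 3 were called, with 14.9% of all genes, and all were higher in the combination: CCND1 by 0.65 ± 0.16 (SE, adjusted p = 0.0066), CDKN2C by 0.48 and CDKN1B by 0.26. There were 5 calls with the replicate number as a block and 1 without combination replicate 1, where CDKN2C (0.45) and CDKN1B (0.25) were lost. CDKN1B was also lost without oxozeaenol replicates 3 or 4 or combination replicates 2 or 3 (0.22 to 0.27), and without the filter (0.25).

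PI103 with PD0325901 against PI103 gave 5 calls, with 38.7% of all genes called. CCND1 was lower by a log2 change of -1.43 ± 0.16 (SE, adjusted p = 1.3e-07), CDKN1A by -0.49, CDK4 by -0.48 and CDKN1B by -0.20 (adjusted p = 0.04999), and CDKN1C was higher by 0.83. Without combination replicate 2 there were 3 calls, as CDKN1C (0.59) and CDKN1B (-0.13) were lost. The CDKN1B call was also lost in 5 other fits without 1 library and with RLE size factors, no filter or those groups alone.

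Against PD0325901 the same combination gave 4 calls, with 18.1% of all genes called. CDKN1C was lower (-1.11 ± 0.25 SE, adjusted p = 0.0042), as were CDKN1A (-0.41) and CDK4 (-0.33), and CDKN2C was higher (0.39). CCND1 differed by 0.39 without passing (adjusted p = 0.078). Without PD0325901 replicate 2 the CDKN1C difference shrank to -0.701 and CDKN2C (0.33) was not called, and without combination replicate 2 CDK4 (-0.25) and CDKN1A (-0.32) were not called. Over the 8 fits without 1 library the CDK4 call was lost in 4 (-0.25 to -0.32), the CDKN1A call in 5 (-0.32 to -0.44) and the CDKN2C call in 5 (0.27 to 0.37). The count was 2 without PD0325901 replicates 1 or 3 or combination replicate 3, 1 without combination replicate 4 and 1 in the fit of those groups alone, and CDKN1C was called in each of these.

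Between the combinations, which share PI103 at one dose, 7 of the 10 genes differed, with 29.9% of all genes called. CDKN1C was higher with PD0325901 as the partner (1.59 ± 0.27 SE, adjusted p = 0.00012). CCND1 (-0.84 ± 0.16 SE, adjusted p = 0.00026), CCNE2 (-0.69), CDK4 (-0.64 ± 0.11 SE, adjusted p = 9.9e-05), CCNE1 (-0.62 ± 0.08 SE, adjusted p = 7.0e-06), CCND3 (-0.36) and CDKN1B (-0.24) were lower. CDKN1A (-0.02, 95% interval -0.30 to 0.26), CDKN2C (-0.19, -0.45 to 0.07) and CDK6 (-0.08, -0.35 to 0.18) were not called. The CDKN1B call was lost without replicates 1 or 2 of PI103 with oxozeaenol or replicate 2 of PI103 with PD0325901 (-0.18 to -0.23), and without the filter (-0.22).

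Each combination was also compared with the mean, on the log2 scale, of its single agents. PI103 with oxozeaenol differed in 1 gene, with 3.98% of all genes called: CCNE1 was above the mean by 0.38 ± 0.07 (SE, adjusted p = 0.0018) and in 4 of 4 batches. With the replicate number as a block 4 were called, and 3 without oxozeaenol replicate 4. CCND1 lay close to the mean (0.03, 95% interval -0.23 to 0.29), between its agents.

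PI103 with PD0325901 differed from the mean in 3 genes, with 22% of all genes called. CCND1 (-0.52 ± 0.14 SE, adjusted p = 0.0090), CDKN1A (-0.45 ± 0.13 SE, adjusted p = 0.012) and CDK4 (-0.41 ± 0.10 SE, adjusted p = 0.0037) were below it, each in 4 of 4 batches. Mean CCND1 still lay between its agents, at 396 CPM against 301 CPM with PD0325901 and 1067 CPM with PI103. Mean CDK4 and CDKN1A lay below both agents, though their libraries overlapped those of PD0325901. Without combination replicate 2, CCND1 (-0.35) and CDKN1A (-0.36) were not called and CDK4 was the 1 call. CDKN1C, for all its rise, was not called against the mean (-0.14, 95% interval -0.58 to 0.29).

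**Figure D5:**
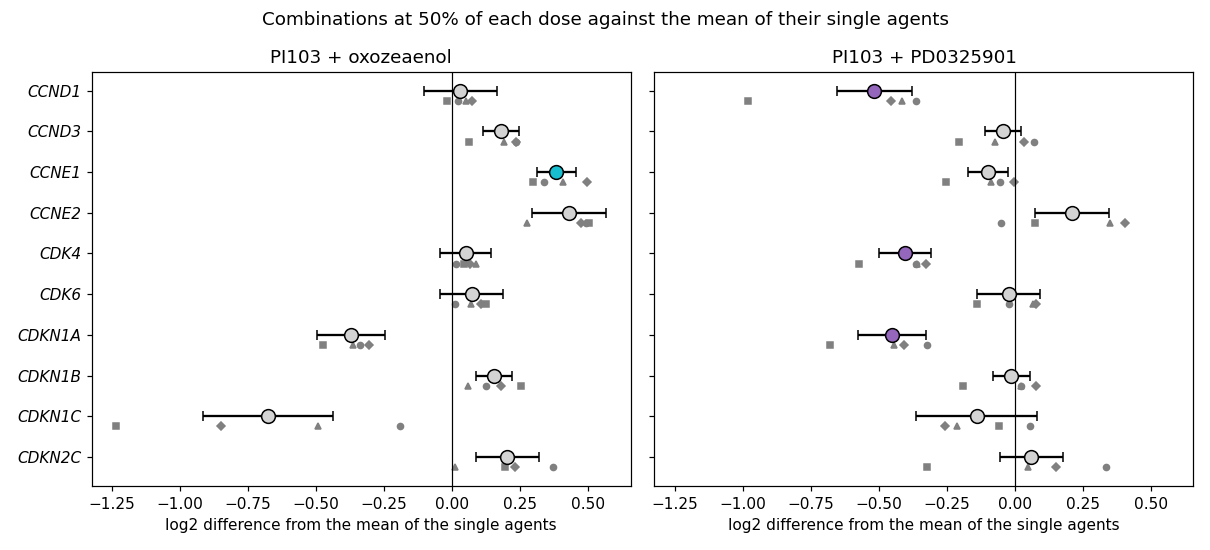
Log2 difference of each combination from the mean of its single agents (horizontal axis) for each gene (vertical axis); large points with bars are the fitted value and its SE, coloured where the adjusted p is under 0.05 and pale otherwise, and small grey points are the 4 batches by replicate shape. CCNE1 is called with PI103 and oxozeaenol (0.38), and CCND1, CDK4 and CDKN1A with PI103 and PD0325901, where the square of replicate 2 lies farthest to the left in all 3.

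Genes of DNA replication, which E2F factors switch on, mostly rose with oxozeaenol and PI103 together. Of 20 DNA replication genes, 17 rose and none fell with PI103 and oxozeaenol (median log2 change 0.62), 12 rose and 1 fell with PI103 (0.50) and 10 rose with oxozeaenol (0.29). With PD0325901 none rose and 7 fell (-0.20), and with PI103 and PD0325901 1 rose and 7 fell (-0.10). The median over all genes lay between -0.02 and 0.02 in these comparisons. Of all tested genes 51.4% were called with PI103, 58.6% with PD0325901 and 51.9% with oxozeaenol. With PI103 and oxozeaenol 55.6% were called, and with PI103 and PD0325901 64.8%. Rises and falls were nearly equal in number in each, such as 4004 and 4172 with PD0325901. The counts of this list and of those below stand beside these shares. MCM6, a helicase subunit, rose with oxozeaenol (0.67), PI103 (0.68) and both (0.96). CDC6, which loads that helicase, fell with PD0325901 (-0.93), with PI103 and PD0325901 (-1.03) and also with PI103 (-0.42).

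Of 20 mitosis genes, 13 fell with PD0325901 (median -0.52) and 12 with PI103 and PD0325901 (-0.51), and none rose. CDC25C fell with PD0325901 (-0.89), PI103 with PD0325901 (-0.78) and oxozeaenol (-0.73), and AURKA with PD0325901 (-0.44) and PI103 with PD0325901 (-0.84). PI103 raised 5 and lowered none (0.41), among them BUB1B (1.01), which also rose with PI103 and oxozeaenol (0.70), and CENPF (0.96), which fell with PD0325901 (-0.52). With oxozeaenol 1 rose and 3 fell (-0.06), and with PI103 and oxozeaenol 2 rose and 1 fell (median 0.00096). CDK1, the mitotic kinase, was the gene that rose with oxozeaenol (0.85), and it rose with PI103 (0.79) and with both (0.85).

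Among 15 genes of the RB family, the E2F factors with their DP partners, and the MuvB subunits LIN9 and LIN54, PI103 raised 6 and lowered 4 (median 0.14), oxozeaenol 5 and 3 (0.06), and PI103 with oxozeaenol 7 and 2 (0.21). LIN9 and LIN54 were 2 of the 3 falls with oxozeaenol. PD0325901 raised 2 and lowered 8 (-0.37), LIN9 and LIN54 among them, and PI103 with PD0325901 4 and 9 (-0.40). E2F1 rose with PI103 (0.65), oxozeaenol (0.71) and both (1.08), and was not called with PD0325901 (-0.07) or PI103 with PD0325901 (0.23). E2F7, a repressor, fell with PD0325901 (-1.41) and with PI103 and PD0325901 (-0.85). RBL2, the p130 gene, rose in all 5 treatments (0.25 to 0.94).

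Of 12 further CDK partners and regulators 10 were tested, and 2 rose and 5 fell with PI103 and likewise with PD0325901 (medians -0.20 and -0.22). Oxozeaenol raised 2 and lowered 3 (-0.12), PI103 with oxozeaenol 2 and 4 (-0.18), and PI103 with PD0325901 3 and 6 (-0.31). CDK2, the partner of E cyclins, rose with PI103 (0.70), oxozeaenol (0.45), both (0.78) and PI103 with PD0325901 (0.32), and was not called with PD0325901 (0.15). CDKN2B, the p15 gene, fell with oxozeaenol (-1.01) and with PI103 and oxozeaenol (-1.44), where CDKN2C rose, and with PI103 (-0.36), and rose with PD0325901 (0.60) and with PI103 and PD0325901 (0.34). CCNH, a subunit of the CDK-activating kinase, fell in all 5 treatments (-0.59 to -1.04).

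A list of 11 genes of ubiquitination of G1 regulators, ligase parts and the deubiquitinase USP2, gave no rise and 1 fall with PI103 (median -0.03), 2 and 4 with PD0325901 (-0.13), 3 and 2 with oxozeaenol (-0.06), 2 and 2, USP2 among the falls, with PI103 and oxozeaenol (-0.10) and 1 and 6 with PI103 and PD0325901 (-0.26). USP2 was scarce, at a mean of 0.27 CPM in control and 0.13 CPM with PI103 and oxozeaenol. FBXW7, which marks cyclin E for degradation, fell in all 5 treatments (-0.35 to -0.57). SKP2, which marks p27, rose with PD0325901 (0.41), oxozeaenol (0.52) and PI103 with oxozeaenol (0.54). CKS1B, another ligase part of this list, fell with PD0325901 (-0.90) and with PI103 and PD0325901 (-0.97), and was not called in the other treatments.

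Known targets of p53 other than CDKN1A (15 tested of 16) were split: 5 rose and 4 fell with PI103 (median 0.09), 6 and 6 with PD0325901 (-0.11), 7 and 5 with oxozeaenol (-0.02), 6 and 6 with PI103 and oxozeaenol (-0.10), and 5 and 6 with PI103 and PD0325901 (-0.23). GADD45A (-1.80 to -2.48), TNFRSF10B (-0.96 to -1.33) and PLK3 (-0.95 to -2.06) fell in all 5 treatments. ZMAT3 (0.64 to 1.29), TP53INP1 (0.54 to 1.31), TP53I3 (0.58 to 0.95), SESN1 (0.25 to 0.92) and BTG2 (0.36 to 0.74) rose in all 5. FOXO targets other than CDKN1B (9 tested of 11) gave 4 rises and 4 falls with PI103 (0.19), 3 and 3 with PD0325901 (-0.11), 2 and 4 with oxozeaenol (-0.28), 3 and 4 with PI103 and oxozeaenol (-0.20), and 4 and 3 with PI103 and PD0325901 (-0.15). CCNG2 (0.50 to 1.93) and SESN1, which is on both lists, rose in all 5 treatments. TXNIP (-1.72 to -3.24), KLF6 (-1.072 to -1.765) and SOD2 (-0.28 to -0.51) fell in all 5.

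Genes induced by ERK (16 genes) fell widely: 15 with PD0325901 (median -3.16), 15 with oxozeaenol (-1.55), 14 with PI103 and oxozeaenol (-1.25), 15 with PI103 and PD0325901 (-2.65) and 10 with PI103 (-0.69). Rises were called for ETV1 and SPRY2 with PI103 and for SPRY2 with PI103 and PD0325901. DUSP6, an ERK phosphatase (-1.42 to -5.19), MYC (-0.91 to -1.71) and FOSL1, an AP-1 subunit (-1.68 to -4.10), fell in all 5 treatments. Wnt targets (9 tested of 10) gave 6 rises and no fall with PI103 (0.74), 2 and 3 with PD0325901 (-0.16) and with oxozeaenol (-0.10), 4 and 1 with PI103 and oxozeaenol (0.26), and 3 and 3 with PI103 and PD0325901 (-0.04). NKD1 rose with PI103 (1.15) and fell in the other 4 treatments (-0.35 to -1.17), and LGR5 rose in all 5 (0.68 to 1.35).

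The genes whose log2 CPM followed each member most closely over the 24 libraries, among 10030 genes, are given as a description, since the libraries share groups and batches. CCND1 was nearest to DPYSL2 (Pearson r = 0.980) and NHS (0.977). DPYSL2 held 78.9 CPM in control, 137 with PI103 and 27.3 with PD0325901. CDKN1C was nearest to PINK1 (0.972) and ATF7IP2 (0.968), and CDK4 to RRP7A (0.977) and CECR5 (0.976). CCNE2 was nearest to SLBP (0.924) and DCK (0.917), and CCNE1 to FAM57A (0.929) and ICMT (0.913). CDKN2C was nearest to RAP2B (0.943) and ZNF395 (0.919), CDK6 to STRN (0.942) and SP1 (0.940), CDKN1A to SLC39A3 (0.915) and ERAL1 (0.914), CDKN1B to CALD1 (0.910) and MRE11A (0.900), and CCND3 to CPT1A (0.882) and NME4 (0.857). Within the 10 genes, CCNE1 and CCNE2 had r = 0.786, CCND1 and CDKN1B 0.755, and CCND1 and CDKN1C -0.743, the last over groups that differ in both genes.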

How the data were processed

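The deposited table holds read counts per gene symbol for 24 libraries, made by the authors from mRNA libraries; input was 0.8 µg RNA and the kit keeps strand, per the labels' protocols. The build was GRCh38, per the submitters' processing notes, and the aligner, counter and annotation are not given in the sources used here. Its 5 tally rows (4.24% to 8.57% of reads with no feature, 1.57% to 2.01% ambiguous, 4.64% to 6.06% not unique) were left out. Groups come from sample titles, because the treatment field of later replicates numbers compound names upward.

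Genes kept by filterByExpr (13947, holding 99.989% of counts) were scaled by TMM and tested with edgeR 4.0.16 in R 4.3.3 (robust estimateDisp and glmQLFit, 1 coefficient per group, two-sided quasi-likelihood F test), with Benjamini-Hochberg adjustment over the genes of each of 15 contrasts. The fit was also run on simulated counts, with a small part of the genes changed in the PI103 group and no batch effect. That run does not cover the wide changes and the batches of these data. SE is the absolute log2 change over the square root of F, and 95% intervals are 1.96 SE. Log2 CPM for likeness used a prior count of 2. Exon lengths are from GENCODE release 29 and promoters from RefSeq GRCh38.p14. Named genes are the 10 members, the 2 smallest adjusted p-values per list and treatment (mean of at least 5 CPM), and the 2 most alike genes per member (mean of at least 5 CPM); other genes were chosen after their values were seen. Members and lists were chosen with earlier results of these data known.

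The labels' batch equals the replicate number, so numbers pair the samples: deviations from group means correlated at 0.12 on average over 60 same-numbered pairs (28 over 0.1) and at -0.04 over 180 others. The labels do not say what a batch shared. Alternatives were RLE size factors, no filter, DESeq2 1.42.0, a replicate block, only the groups compared, a minimum change of 0.5, and leaving out each library.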

Additional observations from a re-analysis of the deposited data

Results flagged for a closer look

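In 60 sets of 4 libraries (10 genes in 6 groups), 4 had a library whose gap to its nearest neighbour, over the range of the set, passed Dixon's 95% critical value, where chance flags about 1 in 20 sets. CCNE1 in replicate 1 was the highest of its group both in control (60.8 CPM against 50.2 to 51.6 in the others) and with oxozeaenol (87.9 CPM against 74.4 to 75.5). CDKN1B was low in oxozeaenol replicate 4 (136.0 CPM against 152 to 155). CDKN1C was high in replicate 2 of PI103 with PD0325901 (13.59 CPM against 7.72 to 8.13), the library of that group in which CCND1 was lowest (245 CPM).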

How the results depend on the processing

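Of 400 values for the 10 genes against control with 1 library left out, 373 kept their direction and their side of the threshold, 19 lost and 4 gained a call, and 4 changed sign, all in genes not called: CCND3 with PD0325901 without PD0325901 replicate 4 (0.0113, lowest -0.0753), CCNE2 with PD0325901 without the same library (-0.0515, highest 0.24), CDK6 with PD0325901 without control replicate 3 (0.04, lowest -0.23) and CDK6 with PI103 and PD0325901 without control replicate 4 (-0.00793, highest 0.22). Of 300 values under the other settings, 274 were unchanged in this sense, 20 lost and 6 gained a call, and none changed sign.

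Testing for a log2 change beyond 0.5, a stricter question, left 2 of 10 genes with PI103, 2 with PD0325901 and 4 with oxozeaenol against control. It left 2 for PI103 against PD0325901, 2 for PI103 against oxozeaenol and 2 for PD0325901 against oxozeaenol. PI103 with oxozeaenol kept 0 against PI103, 0 against oxozeaenol and 0 against the mean, and PI103 with PD0325901 kept 1 against PI103, 0 against PD0325901, 1 against the other combination and 0 against the mean. At that size, all genes called numbered 2073 of the main 7162 with PI103, 3100 of 8176 with PD0325901, 2155 of 7232 with oxozeaenol, 2593 of 7757 with PI103 and oxozeaenol and 4116 of 9039 with PI103 and PD0325901. In the other comparisons they numbered 1730 of 6208 (PI103 against PD0325901), 1264 of 6014 (PI103 against oxozeaenol), 382 of 3976 (PD0325901 against oxozeaenol), 407 of 2553 and 127 of 2074 (PI103 with oxozeaenol against PI103 and against oxozeaenol), 1119 of 5391 and 151 of 2521 (PI103 with PD0325901 against PI103 and against PD0325901), 455 of 4170 (between combinations), and 34 of 555 and 203 of 3065 (against the means).

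Fitting only the groups compared gave 3 genes for PD0325901 against oxozeaenol (2348 of all genes), 1 for PI103 with PD0325901 against PD0325901 (1222 of all genes) and 3 for PI103 with oxozeaenol against the mean (887 of all genes), and 4088 of all genes for PI103 with oxozeaenol against PI103. No filter gave 2 for PI103 with PD0325901 against PD0325901, and DESeq2 2 for PI103 with oxozeaenol against the mean. With the replicate block, PI103 with oxozeaenol had 5 against oxozeaenol and 4 against the mean (997 of all genes); single calls against control gained with the block were CCND1 (-0.33) and CDKN1B (0.17) with PI103 and oxozeaenol and CCNE1 (0.15) and CCNE2 (0.29) with PI103 and PD0325901, and the block ended no call against control. The cause of these differences was not tested.

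With 1 library left out, the number of genes called of 10 ranged from 3 to 5 for PI103 (3 without control replicate 4), 3 to 6 for PD0325901 against oxozeaenol, 1 to 4 for PI103 with oxozeaenol against oxozeaenol and 1 to 3 against the mean (3 without oxozeaenol replicate 4). It ranged from 3 to 5 for PI103 with PD0325901 against PI103, 1 to 4 against PD0325901 and 1 to 3 against the mean. All genes called ranged from 2385 to 4282 for PD0325901 against oxozeaenol, 1050 to 2571 for PI103 with oxozeaenol against oxozeaenol and 232 to 781 against the mean, 1385 to 3113 for PI103 with PD0325901 against PD0325901, 2702 to 3997 between combinations and 1466 to 3977 against the mean. Among the 10 genes the lowest counts behind a value were those of CDKN1C in control libraries, 42 to 100. Some genes of the lists lay lower, such as PIK3IP1 at 0.17 CPM and USP2 at 0.27 CPM in control.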
